A study of Mus musculus with 12 samples.

Results

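Hnf4a, Onecut1, Onecut2, Foxa1, Foxa2, Foxa3, Cebpa and Prox1, a set of transcription factors tied to the hepatocyte and bile duct lineages, were followed through cells sorted from mouse liver by the brightness of a Sox9 reporter. They were taken by gene symbol, and all 8 were found among the 54227 symbols of the table. The series holds 12 libraries of total RNA from C57Bl/6 mice with the Sox9EGFP transgene, fasted for 16 h; all 4 populations carry the transgene, and sex and age are not given in the sources used here. Livers were digested, and 12000 cells per library were sorted into EGFP-negative cells (neg) and the EGFP-positive gates sub, low and high, in order of rising fluorescence, with 3 libraries each. The populations were set apart by EGFP brightness, and each can hold several cell types. In bulk RNA, fewer cells of a type cannot be told apart from less RNA per cell. In the sample descriptions, libraries with the same replicate number share a code across the 4 populations, but nothing says what the code marks. Whether libraries came from the same or from separate animals is thus not given, and p-values measure only the spread between these libraries.

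Depth ranged from 8775387 to 15535588 recovered reads per library, with 9039 to 12687 genes above 0. Values below are normalised counts, read counts divided by a factor for each library, in the order of replicates 1, 2 and 3. The floor is 3 reads per library: where no library of a population exceeds it, the fold is a lower bound taken from 3 reads, which covers counting error only. Sox9 itself, the gene the reporter follows, stayed under the floor in neg and averaged 4865 ± 1570 in sub, with 12097 ± 4429 in low and 13087 ± 1145 in high (SD, n = 3). The summed level of 10 endothelial markers ranged from 144264 to 208559 in neg and 40001 to 53068 in sub, beside 971 to 2777 in low and 631 to 1544 in high. That of 10 biliary markers ranged from 1280 to 2369 in neg and 20369 to 29975 in sub, beside 59473 to 74368 in low and 52525 to 59413 in high. That of 16 hepatocyte products, of which Alb is one, ranged from 665 to 1407 in neg and 8183 to 11220.4 in sub, beside 15257 to 21939 in low and 21336 to 24363 in high. Alb and Ahsg made up at most 27.6% of that sum in neg and 31.6% to 60.8% in sub, beside 74.8% to 87.7% in low and 71% to 76.9% in high. The other 14 products summed to 482 to 1105 in neg and to 4396 to 5595 in sub. They were lower in low than in sub, at 2473 to 3888, and stood at 5484 to 6204 in high. Apoc3 and Cyp7a1 were at 0 in every library, and Apoa1 averaged 411 in neg, 82.4 in low and 53.5 in high.

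These factors act as a network in which several members bind each other's regulatory regions. FOXA proteins open closed chromatin in the foregut endoderm before the liver forms. HNF4A, a nuclear receptor, and CEBPA, a basic leucine zipper protein, drive the metabolic and secretory genes of hepatocytes. The ONECUT proteins HNF6 and OC2, from Onecut1 and Onecut2, act in the shared progenitors of hepatocytes and cholangiocytes and in bile duct formation, and the homeobox protein PROX1 marks hepatoblasts, hepatocytes and lymphatic endothelium.

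Promoter sequence is printed for the members whose upstream bases held a short FOXA or ONECUT motif, to show what those matches look like. RefSeq (GRCm38.p6) supplied the 250 bases before each annotated start, with exon bases removed, for 7 members; Onecut2 was not read. Capitals mark a FOXA motif (TGTTTAC or TGTTTGC) or an ONECUT motif (ATTGATT or ATTGACT), searched on both strands, and each sequence runs 5′ to 3′ along the gene.

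Hnf4a, chr2:163506607-163506807, plus strand: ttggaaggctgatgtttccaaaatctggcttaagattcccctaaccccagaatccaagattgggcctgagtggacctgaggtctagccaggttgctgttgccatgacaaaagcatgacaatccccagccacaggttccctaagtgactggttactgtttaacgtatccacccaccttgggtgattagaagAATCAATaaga

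Foxa1, chr12:57546122-57546361, minus strand: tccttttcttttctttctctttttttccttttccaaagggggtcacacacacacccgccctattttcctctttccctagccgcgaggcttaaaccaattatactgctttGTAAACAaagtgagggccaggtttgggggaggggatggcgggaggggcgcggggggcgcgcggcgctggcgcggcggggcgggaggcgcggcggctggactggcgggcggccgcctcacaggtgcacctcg

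Foxa2, chr2:148046970-148047219, minus strand: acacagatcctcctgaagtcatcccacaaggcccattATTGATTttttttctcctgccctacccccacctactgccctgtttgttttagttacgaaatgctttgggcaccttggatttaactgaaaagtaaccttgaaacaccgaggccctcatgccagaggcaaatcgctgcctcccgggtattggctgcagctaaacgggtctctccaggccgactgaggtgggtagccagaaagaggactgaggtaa

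Counted from the first base printed, the Hnf4a window held an ONECUT match on the opposite strand at bases 191 to 197. Foxa1 held a FOXA match on the opposite strand at bases 110 to 116. Foxa2 held an ONECUT match at bases 38 to 44, and a further window of Foxa2 held another. The RefSeq starts behind the Hnf4a and Foxa1 windows, at 163506857 and 57546111, lie inside the GENCODE spans of these genes given further on, and the printed Foxa1 window lies inside that span too. The windows read for Onecut1, Foxa3, Cebpa and Prox1 held none of these letters. Over 32851 RefSeq promoters of 250 bases, with exon bases kept, 7.29% held the FOXA motif and 4.16% the ONECUT motif. Also searched on both strands, with no match in any window read, were motifs of HNF4 (CAAAGTCCA or CAAAGGTCA, in 0.807% of promoters), C/EBP (TTGCNNAA, in 9.56%) and SOX (ACAATGG or ACAATAG, in 5.03%). A match describes these letters in this window and does not show binding.

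Against EGFP-negative cells, 6 of the 8 factors rose in low and 6 in high, where 4.69% of all genes tested were called in each comparison, while 2 rose in sub, where 1.19% were called. Onecut2 and Prox1 rose in every EGFP-positive population. Hnf4a, Onecut1, Foxa1 and Foxa2 rose in low and in high and were not called in sub. Foxa3 and Cebpa were not called in any of these comparisons. The calls are from limma on log2(normalised count + 1), adjusted over 16128 genes. All 8 factors passed the filter on low values, but 6 of them were at 0 in all neg libraries and passed through the EGFP-positive populations. For these 6 the size of a log2 fold change against neg depends on the count added and on the tool. For Onecut1 in low it ranged from 7.83 to 27.12 over the alternatives run.

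**Figure D1:**
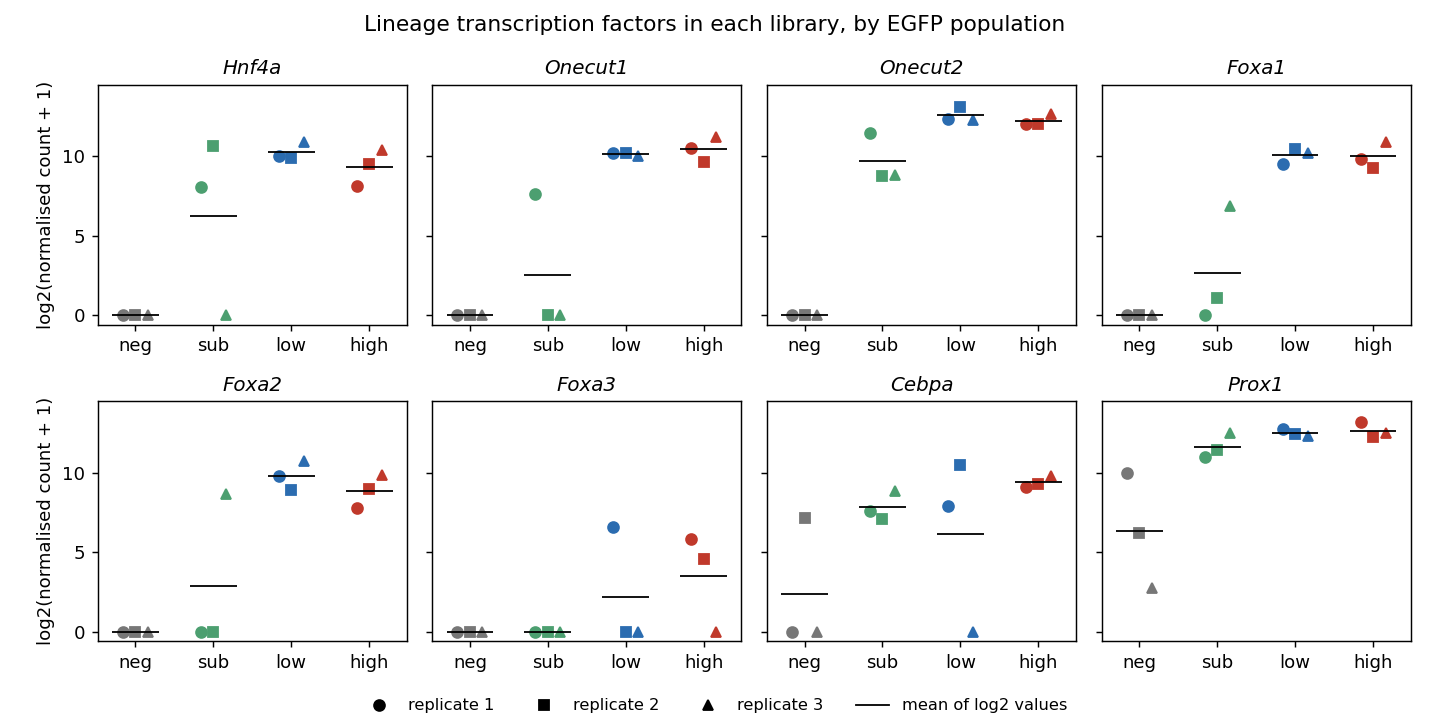
Each panel plots 1 factor as log2(normalised count + 1) in the 12 libraries, by population, with the replicate as marker shape and the mean of the log2 values as a line. Onecut2 stands above 0 in all 9 EGFP-positive libraries and at 0 in neg, while Hnf4a, Onecut1, Foxa1 and Foxa2 vary between 0 and 116 or more counts within sub.

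Onecut2, which acts with Onecut1 in bile duct formation, was at 0 in all 3 neg libraries. It stood at 2869, 433 and 458 in sub, at 5229, 8879.7 and 5088 in low, and at 4212, 4141 and 6413 in high. No EGFP-positive library overlapped with neg, no low or high library overlapped with sub, and sub 1 was well above sub 2 and sub 3. Against neg, the mean was higher by at least 342-fold in sub, by at least 1744-fold in low and by at least 1342-fold in high. Without sub 1 the bound in sub was 121-fold. The log2 fold change against neg was 9.70 ± 1.19 in sub (SE; limma, adjusted p = 6.64e-05), 12.59 ± 1.19 in low (adjusted p = 1.26e-06) and 12.23 ± 1.19 in high (adjusted p = 1.57e-06).

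Onecut1 encodes HNF6, which acts in biliary differentiation. It lies on chromosome 9 at 74861921 to 74891781 on the plus strand (GENCODE M21, GRCm38). It was at 0 in neg and stood at 194, 0 and 0 in sub. Low held 1174, 1170.0 and 1058, and high held 1457, 818 and 2425. The 3 low libraries lay within a narrow range, and only sub 1 of the sub libraries held any Onecut1 read. Means were at least 309-fold higher in low than in neg and at least 427-fold higher in high. The log2 fold change against neg was 10.15 ± 2.34 in low (limma, adjusted p = 0.0147) and 10.48 ± 2.34 in high (adjusted p = 0.0115), and 2.54 ± 2.34 in sub (adjusted p = 0.74).

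Onecut1 shares 2171 exonic bases on the same strand with the long noncoding gene Gm20649, and 52.5% of its 31-base words occur in that gene, so the division of reads between them is uncertain. Gm20649 was above 0 in 2 libraries, at 749 in high 1 and at 0.997 in sub 3. Summing both genes raised Onecut1 in high 1 from 1457 to 2207 and left every other library within 1 count.

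Hnf4a, the nuclear receptor of the hepatocyte programme, lies on chromosome 2 at 163506808 to 163572910 on the plus strand. It was at 0 in all neg libraries. Sub held 264, 1594 and 0, low held 1029, 937 and 1947, and high held 282, 741 and 1353. Sub was split, since sub 2 reached the range of low while sub 3 had no read. The mean was at least 355-fold higher in low than in neg and at least 216-fold higher in high (139-fold without high 3). The log2 fold change was 10.27 ± 2.37 in low (limma, adjusted p = 0.015) and 9.36 ± 2.37 in high (adjusted p = 0.0265), and 6.23 ± 2.37 in sub (adjusted p = 0.355).

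Foxa1 and Foxa2, forkhead pioneer factors, lie on chromosome 12 at 57540628 to 57546916 and on chromosome 2 at 148042877 to 148046969, both on the minus strand. Foxa1 was at 0 in neg. It stood at 0, 1.14 and 116 in sub, at 744, 1432 and 1189 in low, and at 926, 612 and 1921 in high. No low or high library of Foxa1 overlapped with neg or sub, and sub 3 was the only sub library above 3 reads. Foxa2 was at 0 in neg too, and stood at 0, 0 and 411 in sub, at 907, 483 and 1708 in low, and at 217, 497 and 939 in high. Again sub 3 alone held reads in sub, and its Foxa2 value lay within the range of high.

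Foxa1 was at least 306-fold higher in low than in neg and at least 314-fold higher in high. Its log2 fold change was 10.08 ± 2.28 in low (limma, adjusted p = 0.0128) and 10.01 ± 2.28 in high (adjusted p = 0.013). Foxa2 was at least 281-fold higher in low, where its log2 difference was 9.83 ± 2.51 (adjusted p = 0.0283). In high it was higher by at least 150-fold (97.4-fold without high 3), with 8.87 ± 2.51 (adjusted p = 0.0488). The Foxa2 call in high lay near the threshold and was lost with a pseudocount of 0.5 (adjusted p = 0.0503), with the replicate number as a block (0.051), without the filter (0.0648) and with just high and neg fitted (0.0694). Leaving out any neg, low or high library lost it too, with adjusted p from 0.0619 to 0.158. In sub, log2 fold changes were 2.66 ± 2.28 for Foxa1 (adjusted p = 0.728) and 2.90 ± 2.51 for Foxa2 (adjusted p = 0.731).

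Foxa3, the forkhead paralogue known mainly from hepatocytes, lies on chromosome 7 at 19013284 to 19023538 on the minus strand. It was at 0 in every neg and sub library, at 95.7, 0 and 0 in low and at 57.1, 23.2 and 0 in high. Foxa3 thus had reads in 3 of 12 libraries. Its log2 fold change against neg was 2.20 ± 2.15 in low (limma, adjusted p = 0.655) and 3.49 ± 2.15 in high (adjusted p = 0.471).

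Cebpa lies on chromosome 7 at 35119293 to 35121928 on the plus strand. It stood at 0, 142 and 0 in neg, at 198, 136 and 467 in sub, at 240.5, 1441 and 0 in low and at 547, 644 and 882 in high. Low spanned the widest range, from no read to the highest value of all 12 libraries, while the high libraries lay above every neg and sub library. The ratio of means to neg was 5.64 in sub, 11.9 in low and 14.6 in high, and rested on neg 2, the only neg library with Cebpa reads. Without neg 2 the means were at least 72.7, 153 and 188 times as high as in neg, and without low 2 the ratio in low was 2.54. It was 7.90 in low without neg 1 or neg 3, and 3.53 in sub without sub 3. Log2 fold changes against neg were 5.48 ± 2.60 in sub (limma, adjusted p = 0.519), 3.75 ± 2.60 in low (adjusted p = 0.539) and 7.02 ± 2.60 in high (adjusted p = 0.151).

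Prox1 lies on chromosome 1 at 190118035 to 190170714 on the minus strand, and was the only factor above 3 reads in all 12 libraries. It stood at 1038, 72.2 and 5.79 in neg, at 2089, 2768 and 5768 in sub, at 7027, 5619.6 and 5221 in low and at 9457, 4883.5 and 5886 in high. Each EGFP-positive library lay above each neg library, sub 3 lay within the range of low and high, and the neg libraries differed widely among themselves. The ratio of means to neg was 9.52 in sub, 16.0 in low and 18.1 in high, with most of the neg mean from neg 1. Without neg 1 these ratios were 90.9, 153 and 173. Log2 fold changes against neg were 5.33 ± 1.12 in sub (limma, adjusted p = 0.0185), 6.20 ± 1.12 in low (adjusted p = 0.0023) and 6.34 ± 1.12 in high (adjusted p = 0.00168). The call in sub was lost without the filter (adjusted p = 0.12), without the variance trend (0.249) and with just sub and neg fitted (0.652). It was also lost on leaving out neg 2, high 3 or any sub or low library (0.0522 to 0.117). The call in low was lost without the variance trend (0.0576), and those in low and high with just the populations compared fitted (0.241 and 0.187).

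Markers of lymphatic endothelium, where Prox1 is also active, were followed beside it. The summed level of 6 such markers, which include Lyve1 and Reln that other lists hold as well, ranged from 9386 to 15298 in neg and 15878 to 22890 in sub, beside 688 to 1168 in low and 456 to 1236 in high. Mmrn1, one of them, stood at 4120 to 12172 in sub and at most at 46.0 in low, and was at 0 in high. Sub 3, which had the most Prox1 in sub, also had the highest lymphatic sum of all libraries (22890) and the most Mmrn1 (12172) and Ccl21a (2477). It had the least Flt4 (3018) and Lyve1 (21.9) of the sub libraries, and Pdpn was at 0 there, beside 199 and 605 in sub 1 and sub 2. The part of these markers' cells in the Prox1 levels was not tested.

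With the EGFP-positive populations averaged, 5 of 8 factors rose (Hnf4a, Onecut1, Onecut2, Foxa1 and Prox1), against 4.58% of genes, and Foxa2 had an adjusted p of 0.0508. The F test for any difference among the populations called the same 5, against 4.23% of genes. With the replicate number as a block the F test called fewer factors, against 3.85% of genes. The comparisons with neg share the neg libraries, and the calls rest on few libraries. In low against neg the count of 6 became 3 without low 1 and 2 without low 2 or without low 3; in high against neg it became 2 without high 1 or high 3, and 3 when just those populations were fitted (2.11% of all genes). With 1 library left out, 2.77% to 4.77% of all genes were called in low against neg and 2.64% to 4.83% in high against neg. Onecut2 and Prox1 were called in low and in high against neg whichever library was left out. Foxa2 lost its call in both comparisons without any neg library, and Hnf4a lost its call in high without any neg or high library.

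In sub against neg, Prox1 was lost and Onecut2 kept when neg 2, sub 1, sub 2, low 1, low 2, low 3 or high 3 was left out, and without sub 3 Hnf4a was called in place of Prox1. On recovered reads edgeR called 4 factors there, adding Hnf4a and Onecut1, where it called 1.28% of all genes, and DESeq2 called 5 of 7 factors and 10.6% of all genes. A limma fit of just sub and neg called 0 factors and 0% of all genes. With EGFP-positive populations averaged, leaving out any neg library reduced the 5 to Hnf4a, Onecut2 and Prox1. With 1 library of any population left out, 3.24% to 4.33% of all genes were called there.

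**Figure D2:**
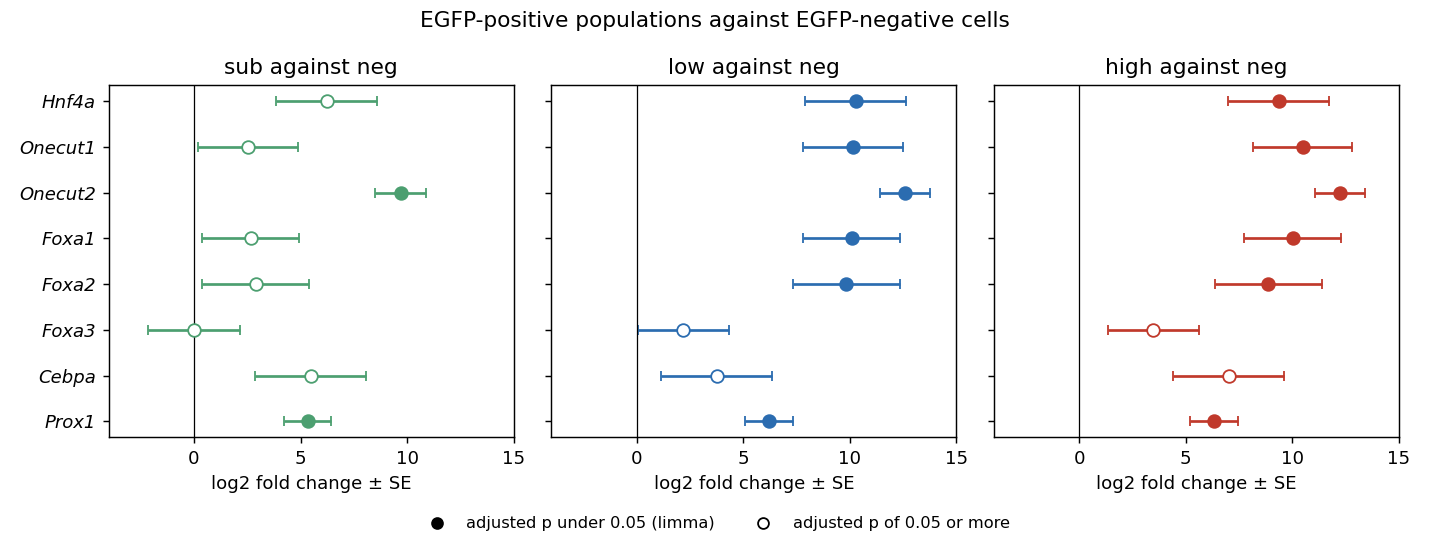
Log2 fold change with its SE for each factor in sub, low and high against neg, from limma on log2(normalised count + 1), with filled circles where the adjusted p was under 0.05. Onecut2 and Prox1 are filled in all panels, at 9.70 and 5.33 in sub, and Foxa3 and Cebpa are open in all panels.

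Between the EGFP-positive populations limma called none of the factors. In low against sub, 0 of 8 were called, against 0.744% of all genes; 4 had an unadjusted p under 0.05 and a higher level in low, namely Onecut1, Onecut2, Foxa1 and Foxa2, against 10.2% of all genes at that p in either direction. All low libraries lay above all sub libraries for these 4, as for 5.75% of all genes tested; both counts come from the same values. The ratio of means was 17.6 for Onecut1, with a log2 difference of 7.61 ± 2.34 (adjusted p = 0.169). It was 28.8 for Foxa1 (7.43 ± 2.28, adjusted p = 0.167), 7.54 for Foxa2 (6.93 ± 2.51, adjusted p = 0.286) and 5.11 for Onecut2 (2.90 ± 1.19, adjusted p = 0.385). Each of these ratios rested on 1 sub library. Without sub 1 it was at least 330 for Onecut1 and 14.4 for Onecut2, and without sub 3 at least 327 for Foxa1 and at least 301 for Foxa2. Hnf4a, Cebpa and Prox1 had overlapping libraries in low and sub, as did Foxa3.

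In high against sub, 0 of 8 were called, against 0.986% of genes, with 4 at an unadjusted p under 0.05, against 10.2% of all genes. These 4 were Onecut1, Onecut2, Foxa1 and Foxa2. All high libraries lay above all sub libraries for 4 of the 8, as for 7.2% of all genes. Those were Onecut1, Onecut2, Foxa1 and Cebpa, so the 2 sets differ. Foxa2 overlapped between high and sub, and Cebpa had an unadjusted p of 0.561 (limma). Onecut1 was 24.2 times as high in the mean (adjusted p = 0.134; at least 456 times without sub 1) and Foxa1 29.6 times (adjusted p = 0.164; at least 336 times without sub 3). On recovered reads, in both comparisons, edgeR called 0 of 8 with 12 libraries, against 1.11% of all genes in low and 1.41% in high. With the replicate number as a block, edgeR on 12 libraries called Onecut2 alone, against 1.7% in low and 1.92% in high. With 10 libraries and no block, leaving out sub 3 and high 2, it called Foxa1 alone, against 1.68% and 1.67%. Sub 3 was the only sub library above 3 reads for Foxa1. DESeq2 called Foxa1 and Foxa3 among 7 factors with a p-value, against 10.2% and 9.54%.

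In high against low, 0 of 8 were called, against 0% of genes, and none had an unadjusted p under 0.05, against 4.24% of genes; edgeR and DESeq2 called 0 as well, against 0.211% and 4.32% of all genes. Libraries of low and high overlapped for every factor. The 95% interval of the log2 difference ran from -2.85 to 2.13 for Onecut2 and from -2.21 to 2.48 for Prox1. Those of the other 6 were wider, for example -5.88 to 4.06 for Hnf4a and -2.17 to 8.71 for Cebpa. The intervals of all 8 include 0.

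**Figure D3:**
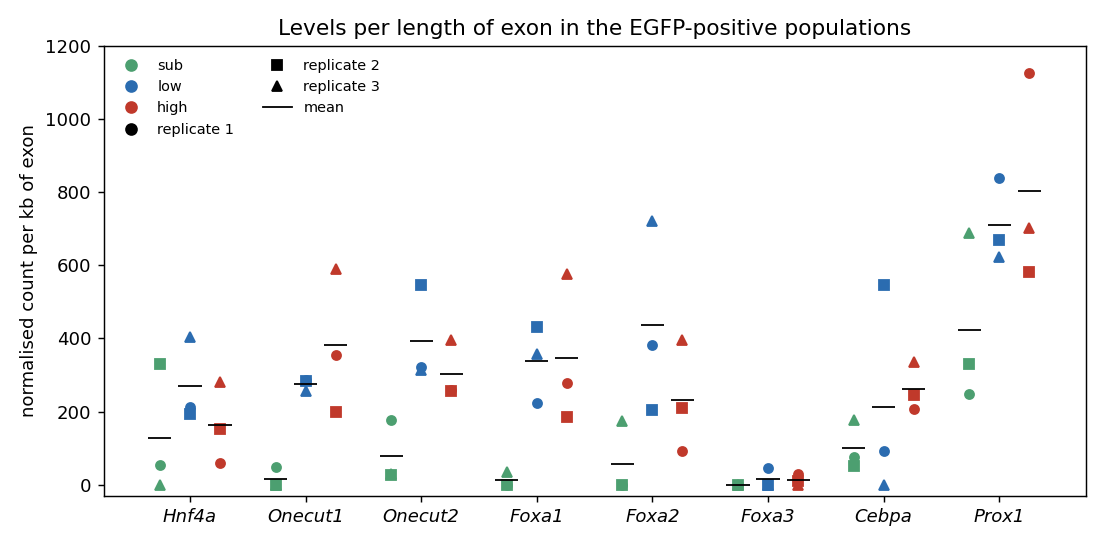
Normalised count per kb of exon (linear axis) for each factor in the sub, low and high libraries, with the replicate as marker shape and the mean as a line. Prox1 has the highest mean in each population, at 422, 710 and 804, and Foxa3 the lowest.

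Levels of different genes were compared only per length, as normalised count per kb of the union of exons in GENCODE M21. In low, Prox1 was highest at 710 ± 113 per kb, followed by Foxa2 at 436 ± 262, Onecut2 at 394 ± 132 and Foxa1 at 337 ± 105 (SD, n = 3). Onecut1 stood at 276 ± 16.0, Hnf4a at 270 ± 116, Cebpa at 213 ± 293 and Foxa3 at 15.7 ± 27.1. From Foxa2 down, each gene differed from the next by less than the larger SD of the pair. Without low 2, Cebpa stood at 45.6 per kb, and without low 1 Foxa3 was at 0. In high the order was Prox1 at 804 ± 287, Onecut1 at 381 ± 197, Foxa1 at 347 ± 205, Onecut2 at 303 ± 79.6, Cebpa at 262 ± 65.4, Foxa2 at 233 ± 154, Hnf4a at 164 ± 111 and Foxa3 at 13.1 ± 14.1. Neighbours from Onecut1 down to Hnf4a again differed by less than the larger SD. Without high 3, Hnf4a stood at 106 per kb and Foxa2 at 151, and without high 1 Foxa3 stood at 5.71. In sub, Prox1 led at 422 ± 233, followed by Hnf4a at 128 ± 177 and Cebpa at 101 ± 66.7, with Onecut2 at 77.2 ± 86.2, Foxa2 at 57.8 ± 100.1, Onecut1 at 15.7 ± 27.2 and Foxa1 at 11.7 ± 20.0. From Hnf4a down, neighbours in sub also differed by less than the larger SD of the pair, and Hnf4a stood at 27.3 per kb without sub 2. Without sub 1, Onecut2 stood at 27.4 per kb and Onecut1 at 0. Without sub 3, Foxa2 stood at 0, Foxa1 at 0.172 and Cebpa at 63.3. Foxa3 was lowest in every EGFP-positive population.

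The sub libraries held different members of the set. Sub 1 had Hnf4a, Onecut1, Onecut2, Cebpa and Prox1 above 3 reads, sub 2 had Hnf4a, Onecut2, Cebpa and Prox1, and sub 3 had Onecut2, Foxa1, Foxa2, Cebpa and Prox1. Above 3 reads were 1, 2 and 1 members in neg, 5, 4 and 5 in sub, 8, 7 and 6 in low and 8, 8 and 7 in high. Above 0 the counts of members were the same, except for 5 in sub 2. The summed level of all 8 was 419 ± 546 in neg and 5922 ± 1175 in sub, beside 17540.0 ± 2101 in low and 16445 ± 3780 in high (SD, n = 3). Genes above 0 made up 16.8% to 20.7% of the table in neg and 16.7% to 19.7% in sub, beside 17.0% to 23.4% in low and 17.9% to 22.0% in high.

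**Figure D4:**
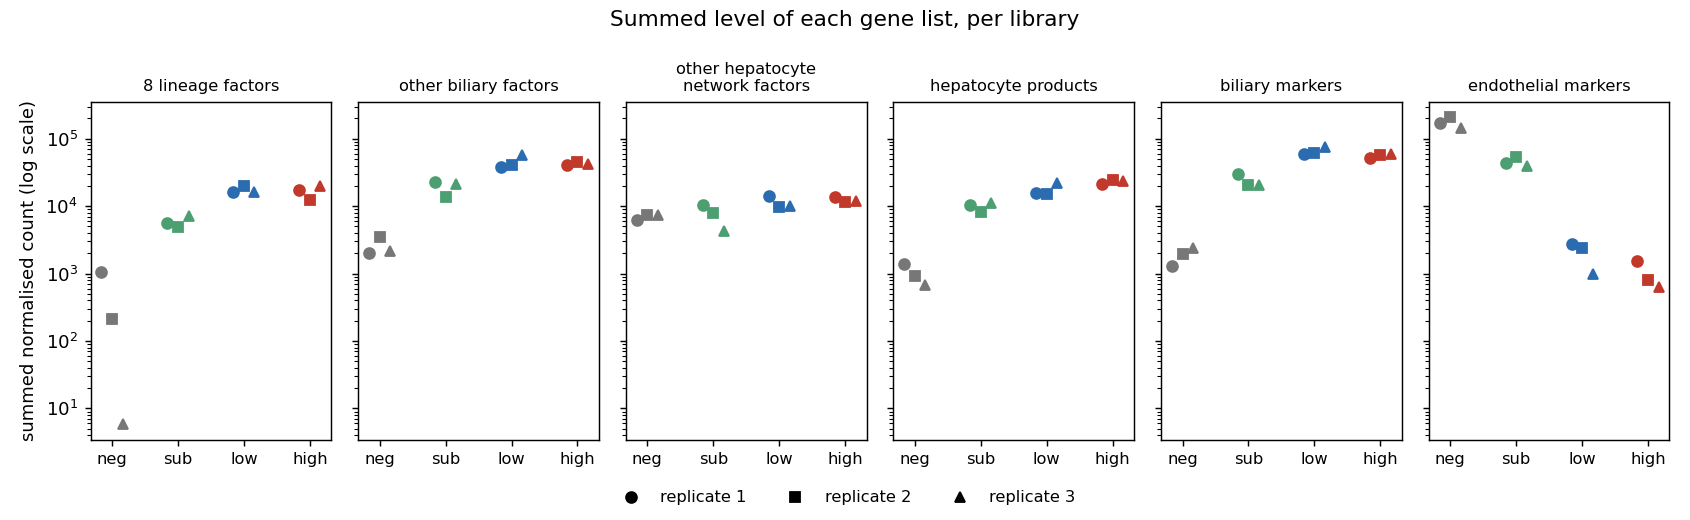
Summed normalised count of each gene list in each library (log axis), by population, with the replicate as marker shape. The 8 factors range from 5.79 to 1038 in neg and from 12359 to 19963 in low and high, and the endothelial markers run the other way. The other hepatocyte network factors range from 6334 to 7481 in neg and from 4341 to 10311 in sub. In low and high they range from 9751 to 14119.

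Genes of the same networks were counted from 2 further lists. Of 9 other biliary factors, 6 rose in sub against neg and 8 rose in low and in high, none fell, and Hes1 was not called, where 1.19% of all genes were called in sub and 4.69% in low and in high. The list holds Sox9, which the sort followed; of the 8 others, 5 rose in sub and 7 in low and in high. The median log2 ratio of means for these 9, with populations under the floor set to 3 reads, was 8.23 in sub, 9.79 in low and 9.47 in high (7.75, 9.22 and 8.90 without Sox9). For the lineage factors it was 4.14, 8.20 and 7.49 (7 of them in sub, where Foxa3 was under the floor in both populations). The median of the fitted limma log2 fold changes, another measure, was 9.086, 11.665 and 10.976 for the biliary factors. On that measure it was 4.111, 9.955 and 9.115 for the lineage factors and 0, 0 and 0.133 over all genes. Ehf, an ETS factor of epithelia, was at 0 in neg and averaged 1222 ± 426 in sub, beside 3248 ± 131 in low and 3696 ± 1072 in high (SD, n = 3; limma against neg, adjusted p at most 3.31e-05). Sox4, a SOX factor of bile duct formation, averaged 1302 ± 638 in neg and 12255 ± 2473 in low (limma, adjusted p = 1.58e-05).

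Of 15 other hepatocyte network factors, 14 were tested. None was called in sub against neg by limma, and in low and in high 1 rose (Hhex) and 1 fell (Gata4), where 1.19%, 4.69% and 4.69% of all genes were called. Their median log2 ratio of means was 0.055 in sub, 1.01 in low and 0.741 in high, over the 13, 14 and 14 factors above the floor in at least 1 of the populations compared. Hhex, a homeobox factor of the liver bud and of endothelium, averaged 1165 ± 321 in neg, 5936 ± 1648 in low (limma, adjusted p = 0.00939) and 6598 ± 1365 in high (adjusted p = 0.00557). Gata4, a zinc finger factor also used by sinusoidal endothelium and stellate cells, stood at 1917, 1704 and 1908 in neg and at 1332, 1114 and 1086 in sub. It was at 0 in all low libraries and at 0, 77.8 and 0 in high (limma against neg, adjusted p = 0.00675 in low and 0.0277 in high). The summed level of 10 stellate and mesenchymal markers ranged from 22309 to 39588 in neg and 28558 to 36857 in sub, beside 857 to 2704 in low and 682 to 2789 in high. Of these 10, 7 fell in low and 7 in high against neg. Lrat, a defining marker of stellate cells, was at 0 in every low and high library. It was not among those called (limma against neg, adjusted p = 0.0857 for low, 0.0846 for high), and its sub libraries held only 73.0, 0 and 68.8. Rgs5, from the same list, was not called either (adjusted p = 0.728 for low, 0.892 for high). Its means were 829 (neg), 845 (low) and 573 (high). The part of stellate cells and of endothelium in the Gata4 levels was not tested.

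Of 16 hepatocyte products, which include targets of HNF4A and CEBPA, 12 were tested; 3 rose in sub and in low against neg and 5 in high, and none fell, where 1.19% of all genes were called in sub and 4.69% in low and in high. The median log2 ratio of means was 4.07 in sub, 3.12 in low and 3.55 in high, over the 12, 13 and 13 products above the floor in at least 1 of the populations compared. Alb, serum albumin, averaged 162 ± 152 in neg and 3539 ± 2007 in sub, beside 11246 ± 3699 in low and 11927 ± 1576 in high (limma against neg, adjusted p = 0.0205, 0.000883 and 0.000725). Ahsg, the plasma protein fetuin-A, averaged 0.230 ± 0.399 in neg, 3270 ± 653 in low and 5268 ± 350 in high (limma, adjusted p = 2.05e-06 and 7.72e-07). Apob, the main protein of liver lipoproteins, was the other product that rose in all 3 comparisons, and Trf and Ttr rose in high against neg. Of the 12 tested, 3 had a fitted level below neg in each comparison, none of them called. Apoa1, an apolipoprotein, stood at 406, 616 and 211 in neg, at 0, 0 and 349 in sub, at 0, 247 and 0 in low and at 7.79, 0 and 153 in high. Ass1, a urea cycle enzyme, averaged 164 ± 144 in neg and 335 ± 580 in sub, beside 52.2 ± 44.9 in low and 60.5 ± 72.0 in high. F9 had at most 3 reads in every library, and Fgb, G6pc and Cps1 were at 0 in at least 2 of 3 libraries of each population. The amount of hepatocyte RNA in these libraries, and its part in the levels of Hnf4a, Foxa3 and Cebpa, was not tested.

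The genes most like each factor were ranked by Pearson r of log2(normalised count + 1) over the 12 libraries, among 9614 genes with a mean of at least 100. The libraries share zeros in neg for most members, and r is given as a description. Onecut2 was most like Klf5, a Kruppel-like factor (r = 0.995), Gm43305 (0.995) and Chdh (0.995), and Sox9 was at rank 17 (0.986). Foxa2 was most like Sertad4 (0.995), Cers6 (0.986) and Pik3c2g (0.982). Foxa1 was most like Rassf5 (0.988), Dusp8 (0.980) and Rragd (0.980), and Foxa1 and Foxa2 were near the top of each other's rankings, at ranks 4 and 7 (r = 0.978), with 8 shared 31-base words. Hnf4a was most like Crybg1 (0.991), Cdcp1 (0.989) and Snx7 (0.986), and Onecut1 like Slc38a4 (0.993), Prrg4 (0.987) and Sema4d (0.982). Prox1 was most like Itgb4 (0.977), Shroom3 (0.975) and Aldh1a1 (0.970). Cebpa was most like Insig2 (0.952), Crebbp (0.920) and Lpin1 (0.917), and its highest r with another member was 0.593, with Onecut2. Foxa3 was not ranked, having reads in 3 libraries.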

How the data were processed

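RNA of 12000 sorted cells per library was DNase-treated for 30 min and made into libraries with a stranded, low-input SMARTer Pico v2 kit, per the labels' protocols. The authors deposited gene-level normalised counts, used here as a signal. The submitters' processing notes name Salmon, DESeq2 1.26.0 and mm10. The annotation, the Salmon version, filters and strand handling are not given in the sources used here. Every deposited signal above 0 was a whole multiple of its column's smallest value within 1e-06, so reads were recovered by division. No molecular identifiers are mentioned, and reads are not independent molecules.

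Genes with a mean of at least 10 (16128 of 54227) were tested on log2(value + 1), a scale that understates changes of low genes, with limma 3.58.1 in R 4.3.3 (variance trend, population as the only term, all 12 libraries, two-sided, Benjamini-Hochberg at 0.05). The limma and edgeR steps were tested on simulated data. Named genes were the 8 members, at most 4 called genes per list, and for each member above 3 reads in at least 6 libraries the 3 genes of highest r. The hepatocyte products were an exception to this rule, with 5 called genes named. Genes cited for what they mark are outside that rule and were chosen after their values were seen, as was Gm20649. The members and lists were chosen with earlier results of these data known. Alternatives were other pseudocounts, filters, scalings, weights and fits, each library left out, and count tests with edgeR 4.0.16 and DESeq2 1.42.0 on recovered reads, with 12 libraries or without the 2 whose value of 1 read lay within 2% of 1. Quantile normalisation and the sum of Onecut1 with Gm20649 were added after seeing the data.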

Additional observations from a re-analysis of the deposited data

How the results depend on the processing

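Against the main counts, sub against neg gave 1 call without a filter (0.75% of all genes called) and without the variance trend (1.08%), 0 with only those populations fitted (0%), 4 with edgeR on 12 libraries (1.28%) and on 10 (1.58%), and 5 with DESeq2 (10.6%). Low against sub and high against sub each gave 1 with edgeR and the replicate block (Onecut2; 1.7% and 1.92%), 1 with edgeR on 10 libraries (1.68% and 1.67%) and 2 with DESeq2 (10.2% and 9.54%), and high against neg gave 3 with only those populations fitted (2.11%). Leaving out 1 library gave 1 to 2 calls in sub against neg (0.843% to 1.51% of all genes), 2 to 6 in low against neg (2.77% to 4.77%) and in high against neg (2.64% to 4.83%), 3 to 6 for EGFP-positive against neg (3.24% to 4.33%), 4 to 6 for the F test (3.17% to 4.3%), 0 to 1 in high against sub (0.287% to 1.1%) and 0 to 0 in both other comparisons. The causes were not tested. DESeq2 gave no p-value for Onecut2.

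Some differences that were not called changed direction. Cebpa in low against sub (-1.73) became 1.09 with edgeR, 1.75 with edgeR on 10 libraries, 1.07 with DESeq2 and 1.34 without low 3, and ranged down to -3.91 without low 2. Foxa1 in high against low (-0.07) became 0.0557, 0.349 and 0.0395 with those tools, 0.13 without low 2 and 0.30 without high 2, and ranged down to -0.52 without high 3. Foxa3 in high against low (1.29) became -0.31, -0.22 and -0.25. With 1 library left out, that comparison ranged from -0.14 to 0.34 for Prox1 and from -0.0532 to 0.73 for Onecut1, and Hnf4a in high against sub was -0.13 with edgeR on 10 libraries. No call against neg changed direction under the alternatives run. Quantile normalisation moved the median of all genes in high against neg from 0.133 to 0, in high against sub from 0.203 to 0.022 and for EGFP-positive against neg from 0.277 to 0.139.

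The deviations of same-numbered libraries from their population means had a mean correlation of 0.009 (-0.016 to 0.027), beside -0.004 (-0.045 to 0.023) for other numbers, all under the 0.1 asked for pairing; 10 of 12 correlated best with their own number, a hint from the data and not the design. With the replicate block, limma called 2 of 8 in sub against neg (1.12% of all genes), 6 in low against neg (4.46%), 5 in high against neg (4.43%; Foxa2 lost, adjusted p = 0.051), 5 for EGFP-positive against neg (4.5%) and 4 in the F test (3.85%). Foxa3 values rest on 3 libraries: low 1 had 129 reads at a depth of 14716505 and low 3 had 0 at 13878119. At these depths 3 reads or fewer could not be told apart from 0.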

Other observations

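Paralogues of the lineage factors, outside the set described above and looked at after its values were known, gave further values. Hnf4g, the paralogue of Hnf4a, was at 0 in neg, at 27.3, 0 and 0 in sub, at 4.45, 0 and 679.7 in low and at 178, 313 and 574 in high. All high libraries held it, and the log2 difference of high against neg was 8.32 ± 2.66 (limma, adjusted p = 0.0861, not called). Onecut3 and Cebpe were at 0 in all 12 libraries, and Prox2 was above 0 in neg 1 alone, at 258.

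No comparison of the other CEBP genes was called by limma. Cebpd stood at 1503, 1960.4 and 1171 in neg and at 141, 295 and 124 in high, without overlap, with a log2 difference of -3.12 ± 1.14 (limma, adjusted p = 0.141, not called). Cebpg averaged 1044 ± 943 in neg and 953 ± 647 in sub, beside 877 ± 365 in low and 888 ± 156 in high (SD, n = 3), and its populations overlapped. Cebpb averaged 324 ± 375 in neg and 209 ± 242 in sub, beside 1026 ± 374 in low and 526 ± 290 in high, and the log2 difference of low against sub was 4.54 ± 1.91 (limma, adjusted p = 0.406).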
